A study of Danio rerio with 36 samples.

Results

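The integrin subunit genes of adult zebrafish were followed from whole tissue to endothelial ribosomes in skin, skeletal muscle and the whole fish. They were taken as every gene of the count table whose symbol starts with itga or itgb followed by a number or a letter, which leaves out the integrin-binding proteins itgb1bp and itgb3bp, and gave 36 genes of 32520. Several share a symbol, so copies are written with the last 5 digits of their Ensembl identifier. The itgb1 copies are itgb1b (ENSDARG00000104484), itgb1-71863 (ENSDARG00000071863), itgb1-09929 (ENSDARG00000109929), itgb1-22689 (ENSDARG00000022689) and itgb1-53232 (ENSDARG00000053232), and the itga11 copies are itga11-07950 (ENSDARG00000007950) and itga11-36086 (ENSDARG00000036086).

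Integrins are transmembrane receptors made of 1 alpha and 1 beta subunit, and they tie the cytoskeleton to the extracellular matrix or to ligands on other cells. The pair of subunits sets the ligand. Beta1 pairs with most alpha subunits, including the collagen, laminin and fibronectin receptors, alphav pairs with several beta subunits that bind vitronectin or latent TGF-beta, and beta2 and beta7 are found on leukocytes. In blood vessels, endothelial integrins anchor the cells to the basement membrane, and leukocyte integrins bind ligands on the vessel wall.

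All libraries came from adult Tg(kdrl:egfp-2a-rpl10a3xHA)y530 zebrafish, known as AngioTag, in which the endothelial kdrl promoter drives EGFP and an HA-tagged ribosomal protein Rpl10a. In translating ribosome affinity purification (TRAP), an antibody to HA takes the tagged ribosomes and their mRNA from a lysate, so a pulldown library can be set against the input library of whole lysate RNA. Each of the 6 groups analysed (pulldown and input of skin, muscle and whole fish) had 3 biological replicates of 4 organs or 4 fish each. No pulldown from fish without the transgene was analysed here, all groups carry it, and the ages of the adults are not given in the sources used here.

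Total counts per library lay between 9202302 and 26255588. The 36 integrin genes took 0.255 to 0.446% of the skin pulldown counts and 0.0969 to 0.135% of the skin input counts. In muscle these shares were 0.0652 to 0.0996% and 0.00543 to 0.0105%, and in the whole fish 0.016 to 0.0449% and 0.018 to 0.0208%. A single gene with no symbol in the reference table, ENSDARG00000080337, took 53.8 to 76.2% of the counts of the whole fish pulldowns, and the biological coefficient of variation there was 0.849, against 0.273 in skin and 0.327 in muscle. Of the endothelial markers, 22 of 25 were enriched in the skin pulldown, 22 of 25 in the muscle pulldown and 17 of 24 in the whole fish pulldown. Of all genes tested, 21.5%, 22.8% and 11.3% were enriched. Muscle fibre markers summed to 343000 to 511000 CPM in the muscle inputs and epidermal markers to 60900 to 82400 CPM in the skin inputs, so both labelled tissues held their defining markers. The skin libraries held muscle fibre markers too, at 17200 to 68800 CPM in the inputs and 9250 to 19200 CPM in the pulldowns. The part of muscle RNA in the skin values was not tested. Levels are given as CPM, counts per 1000000 of the library size after TMM normalisation, and are compared only within a gene, since the table gives no gene lengths. After this scaling the genes of a library need not sum to 1000000, so CPM sums are not shares of the RNA. All genes summed to 1380000 to 2130000 CPM in the muscle inputs and 1260000 to 1490000 CPM in the skin inputs. In such bulk samples, fewer cells of a type and less RNA per cell cannot be told apart.

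A gene was called enriched or depleted in the pulldown when edgeR's quasi-likelihood test, one-sided in each direction, gave a Benjamini-Hochberg adjusted p-value under 0.05 over all genes tested and the log2 fold change of pulldown over input reached 1.2 in that direction. Of the integrin genes, the filter on low counts left 30 (skin), 22 (muscle) and 27 (whole fish), 20 passed in all 3, and itga2.1, itga2b, itgam.2 and itgb8 passed in none. In skin, 7 of 30 were enriched, where 21.5% of all genes tested were, and 1 was depleted, where 18.2% of all genes were. In muscle, 6 of 22 were enriched beside 22.8% of all genes, and 3 were depleted beside 21.0%. In the whole fish, 4 of 27 were enriched beside 11.3% of all genes, and 2 were depleted beside 15.5%. The shares enriched (23.3%, 27.3% and 14.8%) lay near those of all genes, and the median log2 fold change of the integrin genes was 0.38, 0.07 and 0.04, beside 0.04, 0.07 and -0.09 for all genes. Summed over the integrin genes, the skin pulldowns held 2020 to 3240 CPM and the inputs 1260 to 1730 CPM. In muscle the sums were 349 to 608 and 114 to 164 CPM, and in the whole fish 344 to 453 and 131 to 152 CPM. The genes with the highest levels weigh most in such sums, and the scaling enters them too. Most of the skin sums came from itgb4 (mean of 1610 CPM in the pulldowns and 846 CPM in the inputs) and itga6b (488 and 350 CPM). Neither was called in skin. Over all genes the sums were 727000 to 790000 CPM in the skin pulldowns and 1260000 to 1490000 CPM in the inputs. In muscle they were 483000 to 637000 and 1380000 to 2130000 CPM, and in the whole fish 1010000 to 2140000 and 675000 to 730000 CPM. By share of raw counts, the whole fish pulldowns (0.016 to 0.0449%) overlapped the inputs (0.018 to 0.0208%).

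Which integrin genes were called differed in part between tissues, and a call in 1 tissue alone does not show a difference in enrichment. The calls of enrichment covered itga1 and itga5 in all 3 tissues, itga6a in skin and muscle, itgb1b in muscle and the whole fish, and 7 genes in 1 tissue each, namely itga2.2, itga4, itga9 and itgae.2 in skin, itgb2 and itgb4 in muscle, and itgb1-09929 in the whole fish. Depletion was called for itgbl1 in all 3 tissues, for itgae.1 in muscle and the whole fish and for itga10 in muscle. The other 22 genes were called in no tissue. All 3 pulldowns lay above all 3 inputs for 14 of 30 skin genes (33.8% of all genes), 7 of 22 muscle genes (33.4%) and 5 of 27 whole fish genes (18.6%), and all 3 below for 4 (32.0%), 5 (29.2%) and 6 (31.8%). Without TMM factors, that is with library size as the only scaling, the all-gene median shifted to 0.87 (skin), 1.79 (muscle) and -1.01 (whole fish), and fold changes are therefore relative to the bulk of genes. Under that scaling 15, 14 and 2 integrin genes were enriched and 0, 0 and 5 depleted, where all genes split into 7094 enriched and 783 depleted for skin, 9249 and 485 in muscle, and 589 and 4049 for whole fish, against 3694 and 3121, 3385 and 3120, and 1916 and 2615 with TMM. Among the genes that then passed but did not with TMM were itgb1b (1.68), itgb4 (1.77), itga6b (1.32) and itgb1-53232 (1.36) in skin, and itga6b (2.47) and itgb1-09929 (2.27) in muscle.

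**Figure D1:**
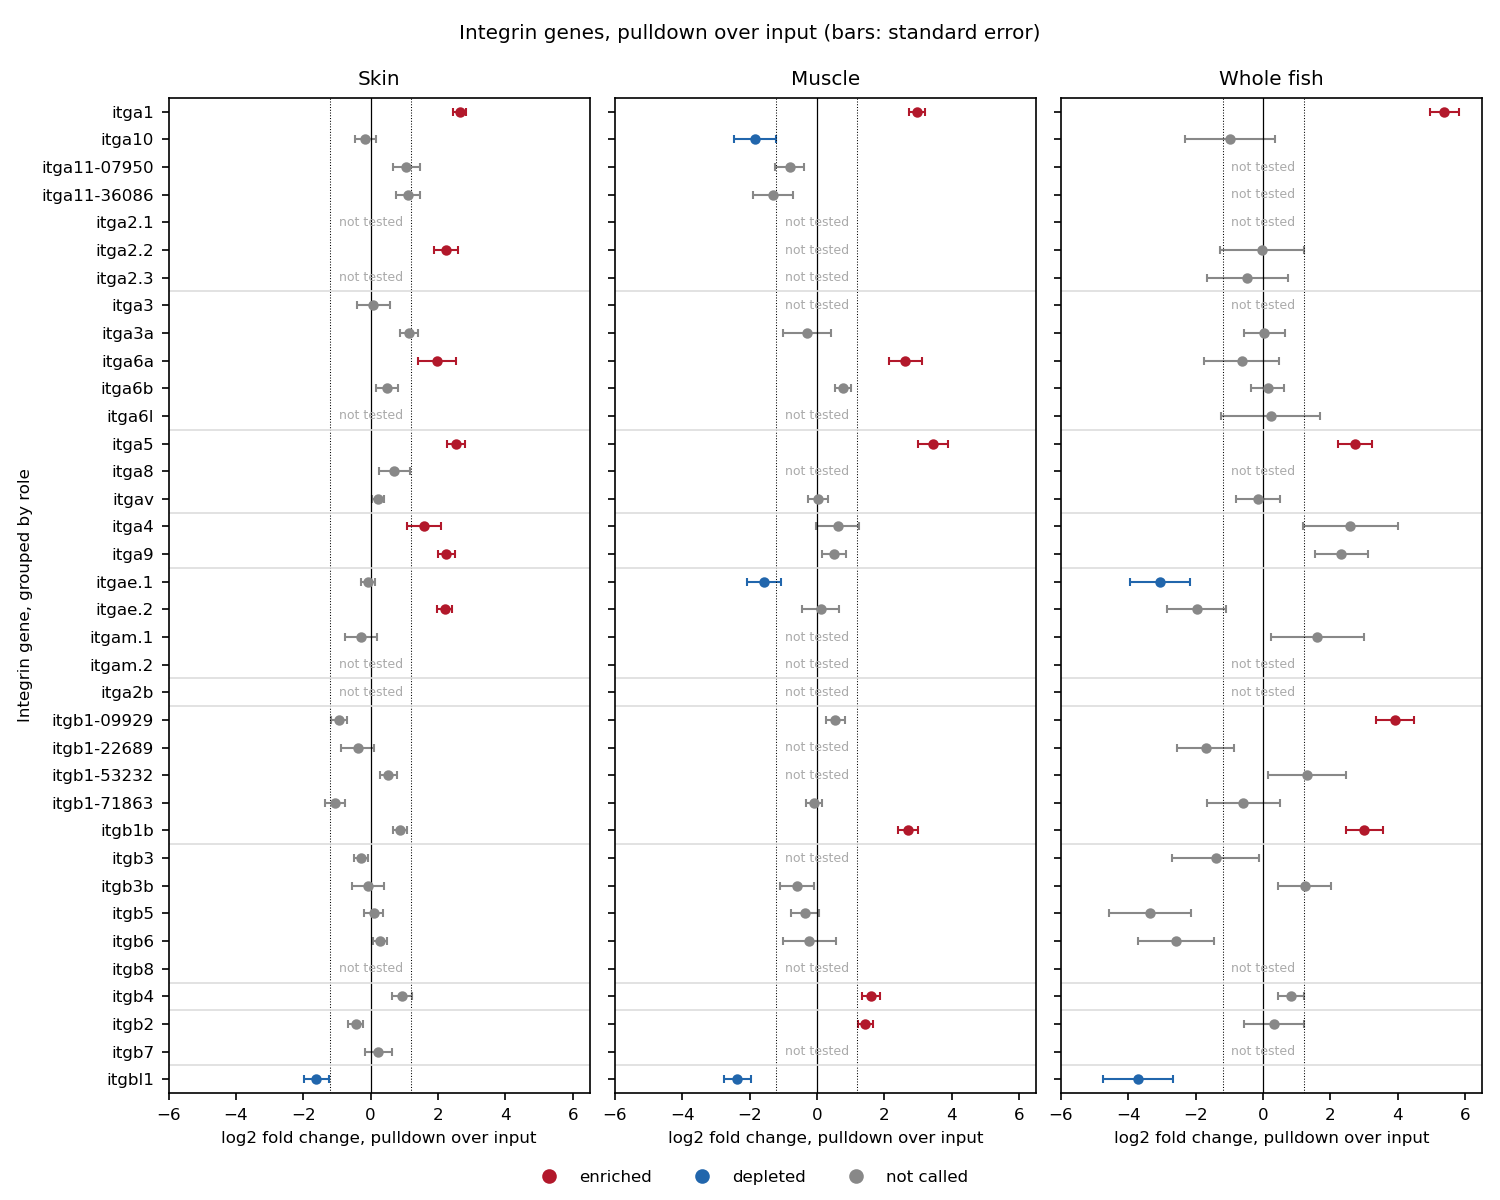
Log2 fold change of pulldown over input for the 36 integrin genes (rows, grouped by role) in skin, muscle and whole fish, with bars of 1 standard error and dotted lines at 1.2 and -1.2. Red points are enriched, blue points depleted and grey points not called, and itga1 and itga5 are red in all 3 panels while itgbl1 is blue in all 3.

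Of the collagen-binding alpha subunits, itga1 was enriched in every tissue analysed. It encodes alpha1, which forms with beta1 a receptor for collagens that include collagen IV of the basement membrane. In skin its levels were 51.5, 44.9 and 41.3 CPM in pulldown replicates 1 to 3 against 7.89, 7.82 and 6.41 CPM in the inputs. In muscle they were 38.4, 45.7 and 44.2 CPM against 5.33, 6.10 and 4.94 CPM. Whole fish pulldowns held 93.4, 107 and 155 CPM against 2.93, 2.03 and 3.56 CPM. The pulldowns lay far above the inputs in every tissue, with no overlap. The log2 fold changes were 2.64 ± 0.20 (SE, n = 3 per group, adjusted p = 4.68e-06) in skin, 2.97 ± 0.23 (adjusted p = 6.08e-06) in muscle and 5.38 ± 0.43 (adjusted p = 0.000408) in the whole fish. No alternative ended these calls, and leaving out any library kept the log2 fold change within 2.51 to 2.66 for skin, 2.93 to 3.11 for muscle and 4.98 to 5.54 for the whole fish.

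The other collagen-binding subunits did not share this pattern. itga2.2, a copy of the alpha2 subunit, was enriched in skin at 26.7, 17.7 and 20.4 CPM in the pulldowns against 7.79, 2.77 and 3.54 CPM in the inputs, a log2 fold change of 2.23 ± 0.36 (adjusted p = 0.000397). It was too low to be tested in muscle, where the 3 pulldowns held 1.06, 0.29 and 0.445 CPM and the inputs at most 0.195 CPM, and in the whole fish its log2 fold change was -0.03 ± 1.25 (adjusted p for depletion = 0.962). itga2.1 did not pass the filter in any tissue and itga2.3 passed only in the whole fish, with a log2 fold change of -0.47 ± 1.21. itga10, which in mammals encodes a cartilage collagen receptor, was depleted in muscle, with 0.866, 0.980 and 0.134 CPM in the pulldowns against 2.08, 2.26 and 2.84 CPM in the inputs and a log2 fold change of -1.83 ± 0.62 (adjusted p = 0.03). That call was lost without muscle input replicate 1 (adjusted p = 0.0536), 2 (0.0594) or 3 (0.103) and with library size as the only scaling (-0.03), and in skin and the whole fish itga10 was not called.

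Both copies of itga11, whose mammalian protein is a collagen receptor of fibroblasts, had all 3 skin pulldowns above all 3 skin inputs. itga11-07950 stood at 3.95, 8.68 and 3.77 CPM in the skin pulldowns against 2.1, 3.60 and 2.14 CPM in the inputs, and itga11-36086 at 3.78, 6.26 and 4.76 CPM against 3.00, 2.14 and 1.74 CPM. Their log2 fold changes in skin, 1.06 ± 0.41 (adjusted p = 0.044) and 1.12 ± 0.36 (adjusted p = 0.0188), stayed under the fold needed for a call. In muscle itga11-07950 stood at 1.42, 1.45 and 0.802 CPM in the pulldowns, just below the inputs at 2.66, 1.47 and 2.27 CPM. itga11-36086 stood at 0.669, 0.363 and 0.490 CPM in the muscle pulldowns and 1.69, 0.452 and 1.54 CPM in the inputs, which overlap. These genes had muscle log2 fold changes of -0.81 ± 0.44 (adjusted p for depletion = 0.154) and -1.30 ± 0.59 (0.0916), neither of them called. The whole fish held too few counts of either for a test, and itga11-36086 had no count in any of its 3 pulldowns, which allows up to 0.177 to 0.274 CPM per library at the limit of 3 counts.

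Among the laminin-binding alpha subunits, itga6a was enriched in skin and muscle and its paralog itga6b was enriched in no tissue. Both encode alpha6, which binds laminins of the basement membrane together with beta1 or beta4. itga6a was rare, at 1.12, 1.51 and 1.08 CPM in the skin pulldowns against 0.400, 0.415 and 0.134 CPM in the inputs, and at 2.44, 3.63 and 1.92 CPM in the muscle pulldowns against 0.585, 0.339 and 0.324 CPM. The pulldowns lay above the inputs in both tissues. The log2 fold change was 1.97 ± 0.56 (adjusted p = 0.011) in skin and 2.63 ± 0.50 (adjusted p = 0.00121) in muscle, and the skin call was lost without skin input replicate 3, where the log2 fold change was 1.54 (adjusted p = 0.0761). The 3 whole fish pulldowns held 1, 0 and 13 counts of itga6a, against 9, 12 and 12 counts in the inputs, and no call could be made (log2 fold change -0.64 ± 1.11).

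itga6b had levels of 316, 758 and 388 CPM in the skin pulldowns and 313, 398 and 339 CPM in the inputs, which overlap (log2 fold change 0.48 ± 0.32, adjusted p = 0.215). In muscle all 3 pulldowns, at 17.8, 15.9 and 18.9 CPM, lay above the inputs at 12, 7.90 and 10.5 CPM, but the log2 fold change of 0.78 ± 0.23 (adjusted p = 0.015) was below the fold needed. For the whole fish it was 0.14 ± 0.49, and turned to -0.06 with DESeq2 or its scaling. itga3a encodes the alpha3 laminin receptor subunit. Its skin pulldowns at 20.3, 19.9 and 15.3 CPM lay above the inputs at 11.3, 6.92 and 7.02 CPM, but the log2 fold change of 1.14 ± 0.26 (adjusted p = 0.00291) was short of a call, and in muscle and the whole fish its groups overlapped. The second alpha3 gene, itga3, and itga6l, an alpha6-like gene, were not called in any tissue where they were tested.

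Of the alpha subunits that read the RGD motif of fibronectin and vitronectin, itga5 was enriched in all 3 tissues and itgav in none. itga5 encodes alpha5, which pairs with beta1 as the main fibronectin receptor. Skin pulldowns held 117, 98.1 and 184 CPM against 20.1, 23.9 and 24.6 CPM in the inputs, and muscle pulldowns 192, 104 and 291 CPM against 15.5, 11.3 and 27.1 CPM. Whole fish pulldowns held 37.6, 27.0 and 71.3 CPM against 7.62, 5.47 and 7.52 CPM. No pulldown overlapped the inputs, and in all 3 tissues the third replicate was the highest pulldown. The log2 fold change was 2.54 ± 0.26 (adjusted p = 2.32e-05) in skin, 3.44 ± 0.45 (adjusted p = 0.000124) in muscle and 2.72 ± 0.50 (adjusted p = 0.00817) in the whole fish. The whole fish call was lost without input replicate 1 (log2 fold change 2.62, adjusted p = 0.0665), 2 (2.55, 0.0587) or 3 (2.75, 0.0553), and under library-size scaling (1.94, 0.174).

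itgav, which encodes the alphav subunit shared by several vitronectin and TGF-beta binding pairs, stood at 38.4, 47.2 and 38.8 CPM in the skin pulldowns and 35.9, 35.3 and 35.3 CPM in the inputs. Its skin log2 fold change was 0.23 ± 0.18 (adjusted p = 0.291), with 0.04 ± 0.29 (0.896) in muscle and -0.16 ± 0.65 (adjusted p for depletion = 0.855) in the whole fish. itga8, the third subunit of this kind, passed the filter only in skin and was not called (0.70 ± 0.46, adjusted p = 0.202).

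The related subunits alpha4 and alpha9 were both enriched in skin. itga9 encodes alpha9, part of a receptor for tenascin C and other ligands, which mice need to form lymphatic valves. It reached 23.1, 36.7 and 24.9 CPM in the skin pulldowns against 5.10, 6.92 and 5.68 CPM in the inputs, a log2 fold change of 2.25 ± 0.25 (adjusted p = 3.49e-05). In muscle the pulldowns, at 9.14, 4.43 and 4.99 CPM, overlapped the inputs at 5.33, 2.94 and 4.70 CPM (log2 fold change 0.50 ± 0.36, adjusted p = 0.245). Whole fish pulldowns of itga9, at 23.4, 3.83 and 10.9 CPM, lay above inputs of 2.32, 2.56 and 2.72 CPM, yet with a log2 fold change of 2.32 ± 0.79 the adjusted p was 0.0777.

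itga4, whose protein binds VCAM1 and fibronectin and is known from leukocytes, stood at 1.29, 4.83 and 3.15 CPM in the skin pulldowns against 0.799, 1.04 and 1.2 CPM in the inputs. The first pulldown lay just above the highest input. The log2 fold change of 1.59 ± 0.51 (adjusted p = 0.0195) was called, but not without skin pulldown replicate 2 (1.11, adjusted p = 0.0966), input replicate 1 (1.43, 0.072) or input replicate 2 (1.56, 0.059), nor without both libraries of replicate 2 (1.11, 0.157). Its 3 whole fish pulldowns ranged from 0.0912 to 8.97 CPM and no call was made.

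**Figure D2:**
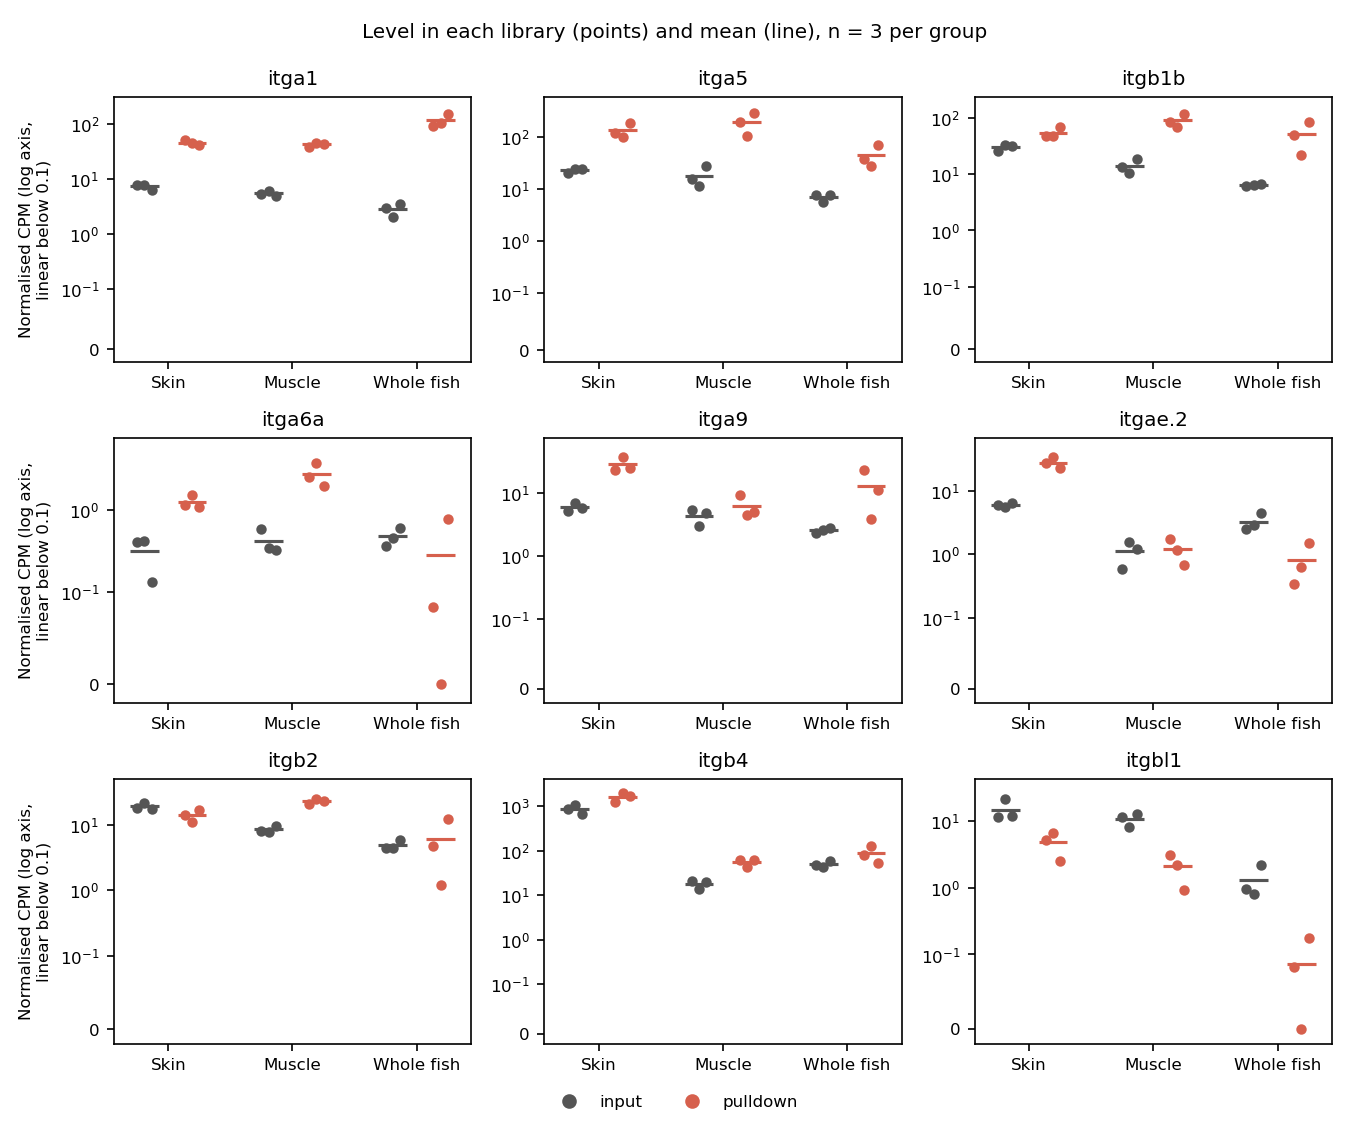
TMM-scaled CPM of 9 integrin genes in each library (points) with the mean of each group (line), input in grey and pulldown in red, on a log axis that is linear below 0.1. The pulldowns of itga1 and itga5 sit above the inputs in all 3 tissues, those of itgbl1 below them in all 3, and those of itgae.2 above them in skin and below them in the whole fish.

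The 5 genes for beta1, the partner of most of the alpha subunits above, behaved differently from each other. itgb1b was enriched in muscle and the whole fish. Its muscle pulldowns held 86.6, 70.4 and 117 CPM against 13.2, 10.6 and 18.4 CPM in the inputs, a log2 fold change of 2.70 ± 0.30 (adjusted p = 4.29e-05). Its whole fish pulldowns held 49.1, 21.8 and 85.3 CPM against 6.11, 6.55 and 6.73 CPM, a log2 fold change of 3.01 ± 0.56 (adjusted p = 0.00881). Its skin pulldowns, at 47.8, 48.8 and 68.0 CPM, also lay above the inputs at 26.0, 32.8 and 32.0 CPM, but the log2 fold change of 0.86 ± 0.21 (adjusted p = 0.00474) was below the fold needed for a call. The whole fish call was lost without input replicate 1 (log2 fold change 2.79, adjusted p = 0.0745), 2 (2.99, 0.0578) or 3 (3.00, 0.0594), and under library-size scaling (2.28, 0.143).

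itgb1-09929, named as a beta1 gene only in the study's supplementary tables, was enriched in the whole fish alone. Its skin pulldowns held 6.95, 6.41 and 7.22 CPM against 10.1, 14.6 and 14.8 CPM in the inputs, all below (log2 fold change -0.94 ± 0.24, adjusted p = 0.0064), short of the fold needed. The whole fish pulldowns stood at 17.8, 19.0 and 17.8 CPM against 0.855, 1.30 and 1.44 CPM, a log2 fold change of 3.92 ± 0.57 (adjusted p = 0.00299). In muscle the pulldowns, at 6.69, 5.48 and 8.60 CPM, overlapped the inputs at 4.55, 3.95 and 5.59 CPM, with a log2 fold change of 0.55 ± 0.28 (adjusted p = 0.112).

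The other 3 copies were not called by edgeR with TMM and all libraries of a tissue in its own fit. itgb1-71863 had skin pulldowns of 7.04, 12.1 and 10.6 CPM below inputs of 16.7, 29.5 and 15.7 CPM, with a log2 fold change of -1.06 ± 0.30 (adjusted p = 0.0107), and it passed the fold needed for depletion without skin pulldown replicate 2 (-1.23, 0.0127), input replicate 1 (-1.22, 0.0112) or input replicate 3 (-1.25, 0.00826). In muscle its log2 fold change was -0.09 ± 0.24 (adjusted p for depletion = 0.807), which turned to 1.64 under library-size scaling. itgb1-53232 stood at 7.72, 8.22 and 8.30 CPM in the skin pulldowns, above the inputs at 6.69, 4.70 and 5.61 CPM (0.52 ± 0.25, adjusted p = 0.0975), and its whole fish pulldowns ranged from 0.274 to 9.75 CPM (1.30 ± 1.16, 0.485). itgb1-22689, at 1.37, 2.11 and 1.15 CPM in the skin pulldowns and 1.40, 3.32 and 1.34 CPM in the inputs, overlapped there (-0.39 ± 0.49, adjusted p for depletion = 0.519). Its whole fish pulldowns, at 1.34, 3.47 and 0.709 CPM, lay below the inputs at 6.68, 7.12 and 4.21 CPM (-1.71 ± 0.85, adjusted p for depletion = 0.169), and it was called depleted there without pulldown replicate 2 (-2.68, 0.0195), by DESeq2 (-1.87, 0.0328), under library-size scaling (-2.92, 0.0214) and in a joint fit of all libraries (-2.14, 0.0246). Both were too low to test in muscle.

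The makeup of the beta1 counts is given as a description, with no test. itgb1b took 36.8, 35.3 and 40.5% of the summed beta1 counts in the muscle inputs and 76.9, 79.6 and 80.8% in the pulldowns, while itgb1-71863 took 48.9, 51.1 and 45.1% of them in the inputs and 16.7, 14.2 and 13% in the pulldowns. In skin the share of itgb1b was 42.7, 38.6 and 46.1% in the inputs and 67.4, 62.9 and 71.4% in the pulldowns. For the whole fish it was 30.2, 33.3 and 31.1% against 61.7, 48.4 and 74.1%. These shares are of counts and not of molecules, since the gene lengths are not known here, and reads that fit more than 1 copy may have been split or dropped between them in the authors' counting.

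**Figure D3:**
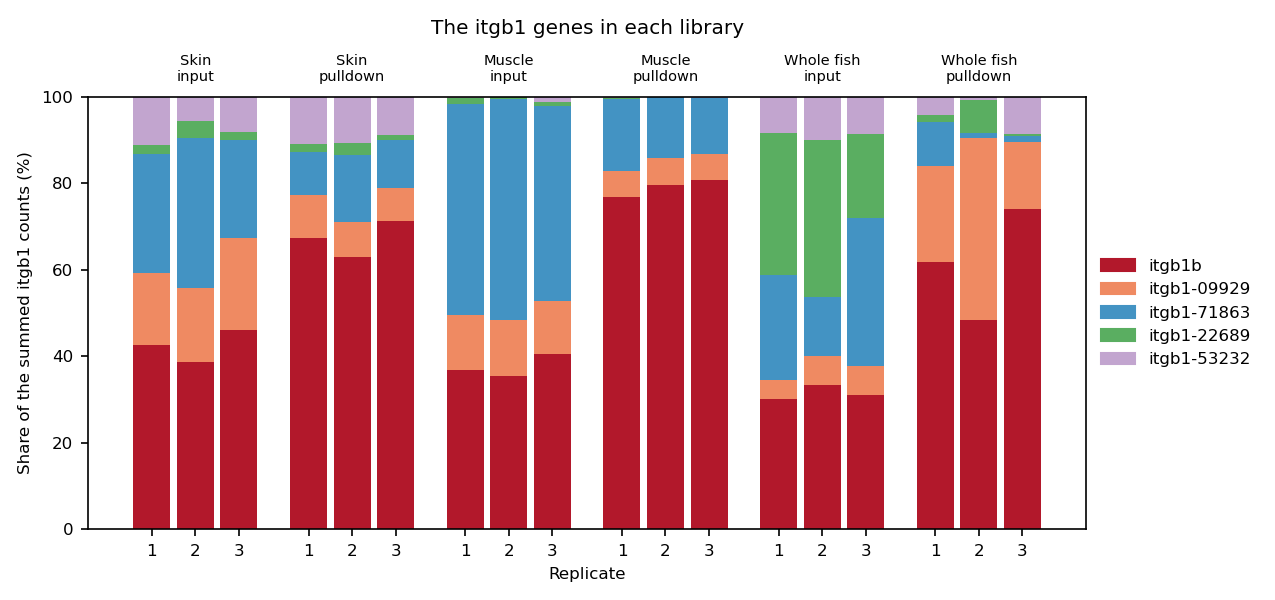
Share (%) of the summed counts of the 5 beta1 genes in each of the 18 libraries, by tissue, fraction and replicate. The red segment, itgb1b, is 30.2 to 46.1% in the inputs and 48.4 to 80.8% in the pulldowns.

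The beta subunits that pair with alphav passed the test in none of the 11 cases tested over the 3 tissues by edgeR with TMM and all libraries of the tissue, and in 2 of them, itgb5 and itgb6 in the whole fish, the unadjusted p-value for depletion was under 0.05. itgb3 and itgb3b encode beta3, known from vitronectin and fibrinogen receptors. itgb3 in skin was at 14.8, 17.8 and 13.4 CPM in the pulldowns against 20.2, 18.8 and 17.4 CPM in the inputs, which overlap (log2 fold change -0.29 ± 0.20, adjusted p for depletion = 0.235). It was too low for a test in muscle, and its whole fish log2 fold change was -1.41 ± 1.29 (0.445), called as depleted only without pulldown replicate 1 (-3.76, 0.0311). itgb3b stood at 1.54, 3.77 and 2.46 CPM in the skin pulldowns and 1.40, 4.08 and 2.61 CPM in the inputs (-0.07 ± 0.47, adjusted p for depletion = 0.929). Its muscle pulldowns, at 0.788, 0.399 and 0.891 CPM, lay just below the inputs at 1.17, 0.903 and 1.05 CPM (-0.60 ± 0.51, 0.36), a value that turned to 1.08 with library size as the only scaling. The whole fish value was 1.23 ± 0.79 (adjusted p for enrichment = 0.323).

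itgb6, an epithelial subunit that activates latent TGF-beta, was at 31.9, 23.3 and 24.8 CPM in the skin pulldowns and 24.6, 18.1 and 23.1 CPM in the inputs (log2 fold change 0.28 ± 0.21, adjusted p = 0.252). In muscle it was at 2.01, 0.508 and 0.624 CPM against 1.49, 0.113 and 1.94 CPM and was not called. All 3 whole fish pulldowns, at 2.93, 1.00 and 0.118 CPM, lay below the inputs at 7.62, 11.8 and 4.90 CPM (log2 fold change -2.59 ± 1.13, adjusted p for depletion = 0.127), and itgb6 was called depleted there without pulldown replicate 1 (-3.90, 0.0317), under library-size scaling (-3.60, 0.0387), in a joint fit of all libraries (-3.02, 0.00571) and by DESeq2 (-2.78, 0.02). The same placement held for itgb5 in the whole fish, with pulldowns of 0, 0.456 and 0.0591 CPM and inputs of 1.67, 1.49 and 2.08 CPM (log2 fold change -3.35 ± 1.22, adjusted p for depletion = 0.0776). itgb8, which pairs with alphav in TGF-beta activation, had at most 0.324 CPM in any of the 18 libraries.

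itgb4 encodes the beta subunit that pairs with alpha6 in the hemidesmosomes of epithelia. It was enriched in muscle, at 60.4, 42.8 and 61.8 CPM in the pulldowns against 21.0, 13.7 and 19.4 CPM in the inputs, a log2 fold change of 1.60 ± 0.26 (adjusted p = 0.00047). In skin the pulldowns, at 1210, 1990 and 1640 CPM, were all above the inputs at 857, 1040 and 645 CPM, with a log2 fold change of 0.93 ± 0.30 (adjusted p = 0.0192) that stayed under the fold needed. The whole fish groups overlapped (0.82 ± 0.39, adjusted p = 0.19), and the value turned to -0.27 under library-size scaling. Epidermal markers beside it gave 7 of 14 depleted (21.0% of all genes) and 4 enriched (22.8%) in muscle. The 4 were ppl, evpla, dspa and dsc2l, and the depleted markers, more in number, are not named here. The list summed to 386 to 1090 CPM in the muscle pulldowns and 591 to 929 CPM in the inputs. In skin 8 of 15 epidermal markers were depleted (18.2% of all genes) and 2, evpla and dspa, were enriched (21.5%). The list summed to 11800 to 18700 CPM in the skin pulldowns and 60900 to 82400 CPM in the inputs. No epidermal marker was at 0 in all pulldowns of any tissue. The part of epidermal RNA in these values was not tested.

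The leukocyte subunits differed in their calls. itgb2 encodes beta2 (CD18), the common beta chain of the leukocyte adhesion receptors. Its muscle pulldowns held 20.9, 24.5 and 23.2 CPM against 8.12, 7.68 and 9.48 CPM in the inputs, without overlap, and the log2 fold change was 1.44 ± 0.22 (adjusted p = 0.00028). In a joint fit of all libraries the call was lost (1.38, adjusted p = 0.0727). In skin the pulldowns, at 14.2, 11.1 and 16.4 CPM, lay below the inputs at 17.9, 21.6 and 17.4 CPM, with a log2 fold change of -0.45 ± 0.22 (adjusted p for depletion = 0.103) that turned to 0.38 under library-size scaling. The whole fish pulldowns ranged from 1.19 to 12.1 CPM and spanned the inputs of 4.33 to 5.74 CPM (0.32 ± 0.89, adjusted p = 0.856).

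Leukocyte markers were mostly depleted or not called. In muscle 11 of 19 were depleted and 1, csf3r, was enriched, with a summed level of 151 to 397 CPM in the pulldowns and 324 to 411 CPM in the inputs. In skin 10 of 22 were depleted and 2, csf1ra and csf3r, were enriched, with 617 to 904 CPM against 3370 to 4970 CPM. In whole fish 6 of 20 were depleted, with 278 to 483 CPM against 790 to 1100 CPM, and cd8a, cd79a and pax5 had no count in the 3 pulldowns. Their mean levels in the whole fish inputs were 1.12, 0.2 and 0.297 CPM. At a floor of 3 counts per library, cd8a was at least 4.79-fold lower in the pulldowns and pax5 at least 1.27-fold. The input level of cd79a was too low for a bound. The list's median log2 fold change was -2.04 in muscle, where itgb2 stood at 1.44, and the part of leukocyte RNA in the values of the leukocyte subunits was not tested. Of all genes, 21.0% were depleted and 22.8% enriched in muscle, 18.2% and 21.5% in skin, and 15.5% and 11.3% in the whole fish.

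itgae.1 and itgae.2 are copies of the gene for alphaE, which in mammals pairs with beta7 on T cells within epithelia and binds E-cadherin. itgae.2 was enriched in skin, at 26.8, 33.2 and 22.7 CPM in the pulldowns against 6, 5.46 and 6.48 CPM in the inputs, a log2 fold change of 2.2 ± 0.23 (adjusted p = 2.07e-05). Its muscle pulldowns, at 1.73, 1.16 and 0.668 CPM, overlapped the inputs at 0.585, 1.58 and 1.22 CPM (0.11 ± 0.55, adjusted p = 0.852). The whole fish pulldowns, at 0.335, 0.639 and 1.48 CPM, lay below the inputs at 2.48, 2.87 and 4.41 CPM (-1.97 ± 0.88, adjusted p for depletion = 0.133). itgae.1 stood at 16.6, 13.4 and 18.2 CPM in the skin pulldowns and 20.2, 14.1 and 16.6 CPM in the inputs (-0.08 ± 0.22, adjusted p for depletion = 0.788), which overlap.

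itgae.1 was depleted in muscle, at 2.28, 3.70 and 0.713 CPM in the pulldowns against 6.04, 8.69 and 5.51 CPM in the inputs, a log2 fold change of -1.58 ± 0.50 (adjusted p = 0.0222). That value turned to 0.21 under library-size scaling, and the call was lost without pulldown replicate 1 (-1.53, 0.061), pulldown replicate 3 (-1.16, below the fold needed) or input replicate 2 (-1.35, 0.0776). It was also depleted in the whole fish, with 8, 5 and 3 counts in the pulldowns and 104, 74 and 78 counts in the inputs (-3.06 ± 0.88, adjusted p = 0.0364). With the replicate number as a block, the whole fish value was -3.18 (adjusted p = 0.13), and without input replicate 1, 2 or 3 the adjusted p was 0.128, 0.112 or 0.139.

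Of the remaining blood cell subunits, itgam.1 and itgam.2, named for the myeloid alphaM chain, were called nowhere, and itgam.2 had at most 0.679 CPM in any library. itgb7, the beta chain of gut-homing lymphocytes in mammals, was tested in skin alone, with pulldowns of 2.66, 1.58 and 2.15 CPM and inputs of 1.60, 1.59 and 2.27 CPM (0.22 ± 0.40, adjusted p = 0.644). Its whole fish pulldowns held 1.76, 8.58 and 0 CPM against at most 0.285 CPM in the inputs, and it did not pass the filter. itga2b, the thrombocyte subunit CD41, had at most 0.790 CPM in any library. Of the thrombocyte markers, 1 of 6 was enriched and 3 were depleted in muscle, and 1 and 1 of 6 in whole fish, with thbs1b the enriched one in both.

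itgbl1 was depleted in every tissue. Despite its symbol it encodes a beta-integrin-like protein with EGF-like repeats, not a subunit of the receptor. Its levels were 5.15, 6.64 and 2.46 CPM in the skin pulldowns against 11.2, 20.8 and 11.9 CPM in the inputs, and 3.07, 2.21 and 0.935 CPM in the muscle pulldowns against 11.4, 8.01 and 12.6 CPM. The whole fish pulldowns held 1, 0 and 3 counts and the inputs 23, 21 and 44. All pulldowns lay below all inputs. The log2 fold changes were -1.62 ± 0.37 (adjusted p = 0.00351) in skin, -2.36 ± 0.40 (adjusted p = 0.000756) in muscle and -3.71 ± 1.03 (adjusted p = 0.0326) in the whole fish. With the replicate number as a block the whole fish value was -4.00 (adjusted p = 0.111), and the call was also lost without whole fish input replicate 1 (adjusted p = 0.0803), 2 (0.0843) or 3 (0.103). Under library-size scaling it was called only in the whole fish, with -0.81 in skin and -0.59 in muscle.

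Mural cell and fibroblast markers beside itgbl1 and itga10 gave 8 of 15 depleted and 2 enriched in muscle, with summed levels of 2430 to 4730 CPM in the pulldowns and 1380 to 2270 CPM in the inputs. In skin 3 of 15 were depleted and 3 enriched, with 2400 to 3180 CPM against 2700 to 3850 CPM. In whole fish 7 of 13 were depleted and 2 enriched, with 1490 to 3220 CPM against 766 to 1150 CPM, and lum had no count in any pulldown. In muscle and the whole fish the summed levels lay higher in the pulldowns, although most of the called markers were depleted. Over all genes the whole fish sums also lay higher in the pulldowns (1010000 to 2140000 against 675000 to 730000 CPM). The muscle sums over all genes lay lower (483000 to 637000 against 1380000 to 2130000 CPM). Of all genes, 21.0% were depleted and 22.8% enriched in muscle, 18.2% and 21.5% in skin, and 15.5% and 11.3% in the whole fish. The part of mural cell and fibroblast RNA in the values of itgbl1, itga10 and itga11 was not tested.

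An interaction term, fitted to the 12 skin and muscle libraries together and tested two-sided, asked which genes had unequal enrichment in these tissues. Of 31 integrin genes tested, itga2.1 among them, 7 differed (22.6%), where 23.8% of all genes did. The skin value was the higher one for itgae.2 (difference in log2 fold change 2.11 ± 0.51, adjusted p = 0.00815), itga9 (1.80 ± 0.44, 0.00912), itga11-36086 (2.47 ± 0.68, 0.0167) and itga11-07950 (1.91 ± 0.60, 0.0319), that is for 4 genes, beside 11.4% of all genes. The muscle value was the higher one for itgb2 (-1.83 ± 0.31, adjusted p = 0.000835), itgb1b (-1.79 ± 0.38, 0.00394) and itgb1-09929 (-1.45 ± 0.37, 0.0113), that is for 3 genes, beside 12.4% of all genes. The median difference over all genes was 0.24. With a block for each lysate, since pulldown and input of 1 replicate number are paired, 12 integrin genes differed, the 7 above and itgb1-71863 (-0.89, adjusted p = 0.0128, against -0.92 and 0.107 without it) among them. The rest of the 12 were not identified by name. Some genes for which the fit without this block shows no difference may be among them. The calls over all 18669 genes rose as well, to 3638 higher in skin and 3292 higher in muscle, from 2126 and 2313. In a joint fit with the whole fish libraries the 7 calls were lost (adjusted p from 0.118 to 0.241).

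In the fit without a block, to which the intervals belong, the difference was not shown for itga1, at -0.29 with a 95% interval of -0.89 to 0.30. Nor was it shown for itga5, at -0.84 with an interval of -2.0 to 0.31. For itga6a the interval ran from -2.33 to 1.09, and for itgbl1 from -0.43 to 2.0. Nor was it shown for itga2.2 (0.16, -2.63 to 2.96) and itga4 (1.00, -0.86 to 2.86), called in skin and not in muscle. The same held for itgb4 (-0.63, -1.50 to 0.24), called in muscle and not in skin. With a block for each lysate itgb4 was not called either (-0.64, adjusted p = 0.08). itgae.1, at 1.55 (0.38 to 2.72), and itgb7, at 3.08 (0.73 to 5.44), had adjusted p-values of 0.053 and 0.055, and itgb7 passed without muscle pulldown replicate 1 (5.54, 0.012), as did itgb3 (2.06, 0.0455, from 0.37). Leaving out 1 library at a time kept the calls of itgae.2, itga9, itgb2, itgb1b and itgb1-09929. The call of itga11-36086 was lost without skin input replicate 3 (2.17, adjusted p = 0.0587), muscle input replicate 1 (2.04, 0.062) or muscle input replicate 3 (2.17, 0.0549), and that of itga11-07950 without skin pulldown replicate 2, skin input replicate 1 or 3, muscle pulldown replicate 3 or muscle input replicate 1 or 3 (1.41 to 1.74, adjusted p from 0.0725 to 0.111). Under library-size scaling, where the median difference was -0.68, the 4 genes higher in skin were no longer called (0.86 to 1.60), and all genes split into 334 higher in skin and 5143 in muscle, against 2126 and 2313 with TMM. Without both libraries of skin replicate 2, the calls of itgb1-09929 (-1.32, 0.0589), itga11-07950 (1.73, 0.0828) and itga11-36086 (2.23, 0.0865) were lost.

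**Figure D4:**
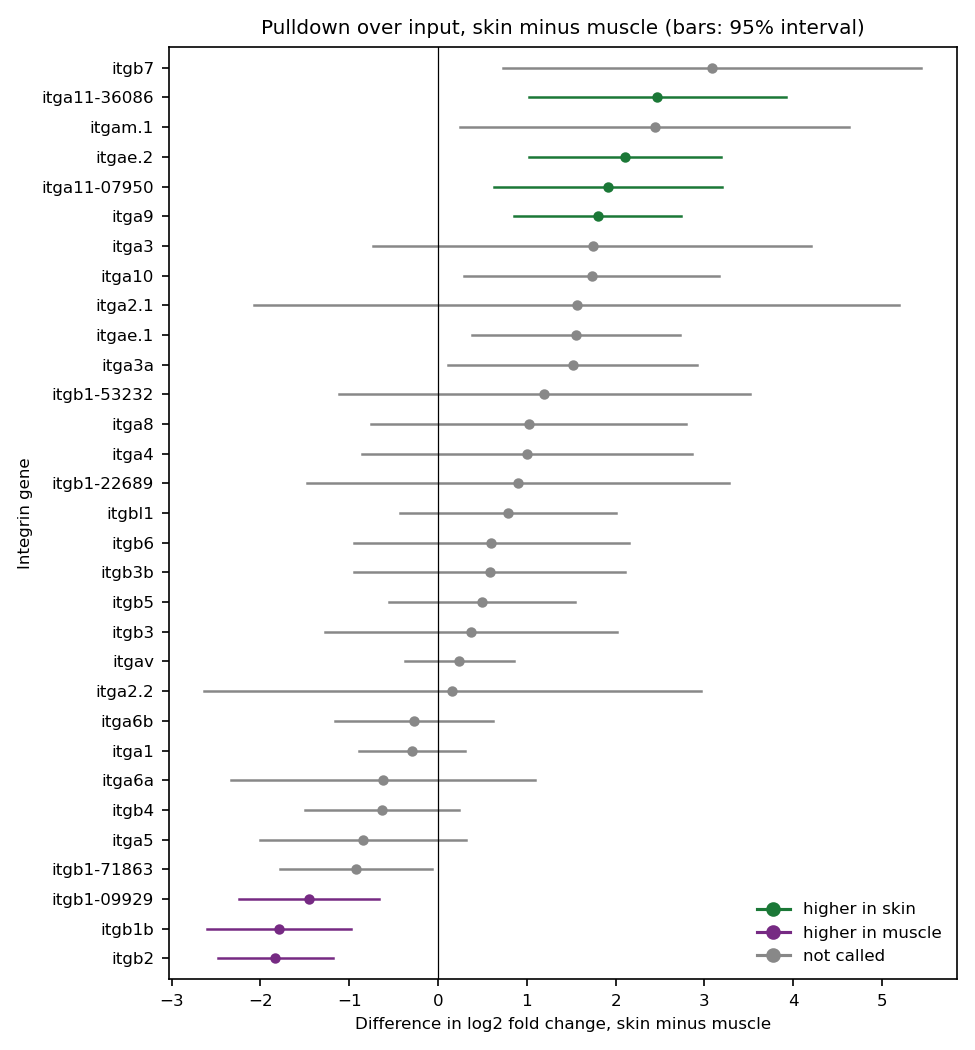
Difference in log2 fold change of pulldown over input, skin minus muscle, for the 31 integrin genes tested (points) with 95% intervals (bars). The values are from the fit without a block for each lysate. The 4 green genes, itga11-36086, itgae.2, itga11-07950 and itga9, lie between 1.80 and 2.47, and the 3 purple genes, itgb2, itgb1b and itgb1-09929, between -1.83 and -1.45.

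The proteins that couple integrins to actin and regulate their activity were read from a list of 55 genes, of which 51 were matched. In skin 18 of 50 tested were enriched (21.5% of all genes) and 1 depleted (18.2%), in muscle 18 of 48 were enriched (22.8%) and 6 depleted (21.0%), and in the whole fish 12 of 47 were enriched (11.3%) and 3 depleted (15.5%). The median log2 fold changes were 0.62, 0.90 and 1.09, beside 0.04, 0.07 and -0.09 for all genes. bcar1, the adaptor p130Cas, was enriched in all 3 tissues, by 6.97 ± 0.34 (skin), 6.48 ± 0.30 (muscle) and 4.36 ± 0.44 (whole fish) on the log2 scale. For tns1b, a tensin that links beta subunit tails to actin, the values were 2.82 ± 0.22, 3.74 ± 0.29 and 3.63 ± 0.42. In the whole fish kank3 and fermt2, given below, lay above both bcar1 and tns1b. For tln1, the talin that binds and activates beta subunits, they were 1.83 ± 0.22, 3.05 ± 0.28 and 2.28 ± 0.34 in the 3 tissues (tln1 was chosen after its values were seen).

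The other genes at the upper end were the parvin parvab in skin (2.47 ± 0.35), the guanine nucleotide exchange factor arhgef7b in muscle (3.56 ± 0.28), and kank3 (5.04 ± 0.48) and the kindlin fermt2 (4.43 ± 0.44) in the whole fish. At the lower end stood itgb1bp1, an inhibitor of beta1 activation, in skin (-2.45 ± 0.23) and fyna (-2.44 ± 0.42), parvb (-2.27 ± 0.32) and the paxillin copy pxn-60766 (-1.87 ± 0.44) in muscle. For the whole fish these were tns1a (-4.38 ± 1.29), fermt3b (-3.69 ± 1.16, a gene that is also on the thrombocyte list) and sharpin, which had no count in any pulldown and was at least 7.1-fold lower there at a floor of 3 counts per library. The lowest called values in skin beside itgb1bp1 were those of git1 (1.21 ± 0.20) and fermt1 (1.33 ± 0.23), both enriched.

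Genes for integrin ligands were read from a list of 45, of which 43 were matched. In skin 13 of 38 were enriched and 3 depleted, beside 21.5% and 18.2% of all genes. In muscle 9 of 37 were enriched and 11 depleted, beside 22.8% and 21.0%, and in the whole fish 7 of 39 were enriched and 6 depleted, beside 11.3% and 15.5%, with median log2 fold changes of 0.63, -0.17 and -0.57. Basement membrane collagen IV, a ligand of alpha1, was enriched in all 3 tissues, col4a1 by 3.28 ± 0.23, 3.64 ± 0.34 and 6.03 ± 0.35 on the log2 scale in skin, muscle and whole fish. vcam1a, a ligand of alpha4, was enriched by 4.25 ± 0.29, 3.69 ± 0.25 and 5.77 ± 0.78, and vwf, which is also on the endothelial list, by 3.35 ± 0.28, 4.76 ± 0.35 and 6.23 ± 1.09. For the whole fish col4a2 (6.32 ± 0.32) and lrrc32 (6.38 ± 0.89), which holds latent TGF-beta at the cell surface, were the other 2 at the upper end.

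The depleted ligand genes were led in skin by spp1 (-2.64 ± 0.42), the RGD protein osteopontin, fbln1 (-1.45 ± 0.28) and egfl6 (-1.32 ± 0.46), and in muscle by vtnb (-5.11 ± 0.83), for vitronectin, spp1 (-3.75 ± 0.91) and tgfb3 (-3.01 ± 0.28). Whole fish vtn, spp1 and fbln1 had no count in any pulldown and were at least 14.4-fold, 13-fold and 4.24-fold lower than in the inputs at the same floor.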

How the data were processed

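RNA-seq of adult AngioTag skin, muscle and whole fish, input and pulldown, was analysed from the deposited table of raw read counts per gene. Per the study's methods, the authors made non-directional SMART-seq V4 libraries and used the lcdb-wf workflow (cutadapt for trimming, hisat2 for alignment to GRCz11, Ensembl gene models). The deposited values are whole-number counts whose totals differ between libraries, that is, they are not normalised. The counting program is not given in the sources used here, and without strand, overlapping antisense genes cannot be told apart. Copies with a shared symbol (itgb1, itga11, itga2, itgae, itgam) may share reads, so their split is uncertain, and how alike their sequences are was not examined. GEO's processing notes name DESeq2.

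Of the 36 columns, 18 were used. The other 18 (liver, heart, brain) cannot be told apart by name and were not used. Skin replicate 2 was assigned by elimination among column names. Symbols came from a reference table, with 29201 of 32520 identifiers matched, and from names in the study's supplementary tables, which alone named 1 integrin gene, itgb1-09929. No sequences are shown.

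Libraries differed by more than counting noise (chi-square per gene of 27.3 to 326 between replicates). Counts were fitted with edgeR 4.0.16 in R 4.3.3, separately per tissue, after filterByExpr and TMM scaling, with one-sided quasi-likelihood tests in each direction and Benjamini-Hochberg adjustment over all genes tested. Calls required adjusted p-values below 0.05 together with a log2 change of 1.2 or more in the tested direction. TMM takes most genes as unchanged, which a pulldown need not meet. The skin minus muscle difference was a two-sided interaction test over 12 libraries at the same adjusted p-value. Standard errors are fold changes divided by the root of the F statistic. The p-values measure the spread between libraries within a group, each from 3 pools of 4 fish or organs. The main fits do not use the pairing of pulldown and input described below. Limits of 3 counts cover counting error only. Python 3.11.15 and matplotlib 3.10.9 were used for tables and plots. The fits were tested on simulated data in which a small set of genes was raised in the pulldown and no pairing was set. Such data do not test the assumption behind TMM or the use of pairing.

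The replicate numbers pair the libraries within a tissue: deviations from group means of same-numbered pulldown and input had an r over genes of 0.39 to 0.43 (skin), 0.37 to 0.49 (muscle) and 0.17 to 0.19 (whole fish), against -0.36 to -0.05 for different numbers. Fits with the replicate number as a block, DESeq2 1.42.0, other scalings and filters, a joint fit and fits without single libraries were tried.

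The members and lists were chosen with earlier results of these data known. Every integrin gene was accounted for. The rule for values by library named genes enriched in all tissues, called in opposite directions (there were none in the main fits) or differing between skin and muscle. It also named the 3 highest pulldown levels and the 3 largest and smallest called fold changes per tissue. Further named were itgb2, itga2b and itgb7, itgb4, itga6b and itgb6 and all copies of itgb1 and itgb3. Rare or overlapping values are given as ranges or fold changes only. From the adhesion and ligand lists, the 3 largest and 3 smallest called fold changes per tissue were named.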

Additional observations from a re-analysis of the deposited data

Results flagged for a closer look

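For 7 integrin genes the enrichment in the pulldown differed between skin and muscle by the interaction test of edgeR without a block, two-sided and adjusted over all genes. The difference in log2 fold change, skin minus muscle, was 1.80 for itga9, 2.11 for itgae.2, 1.91 for itga11-07950 and 2.47 for itga11-36086, and -1.83 for itgb2, -1.79 for itgb1b and -1.45 for itgb1-09929. The 7 calls were lost in a joint fit with the whole fish libraries, 4 of them under scaling by library size alone and 3 without both skin replicate 2 libraries. With a block for each lysate, which uses the pairing of pulldown and input, 12 integrin genes differed.

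Another 2 genes were flagged because all pulldowns lay on opposite sides of the inputs in skin and in the whole fish. itgb1-09929 had a log2 fold change of -0.94 in skin and 3.92 in the whole fish, and itgae.2 had 2.2 and -1.97 respectively. The -0.94 was under the fold needed and the -1.97 had an adjusted p for depletion of 0.133, so neither was called in the main fits. With DESeq2, 6 integrin genes were depleted in the whole fish. Not all of them were identified by name, so whether itgae.2 is among them is not known here. Over all genes tested, 33.8% had all pulldowns above and 32.0% all below in skin, and 18.6% and 31.8% in the whole fish. The share of all genes on opposite sides was not counted, so this placement is not shown to be unusual. The whole fish holds skin too, and the difference between these comparisons was not tested.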

How the results depend on the processing

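Of 537 values of the called genes under an alternative, 476 kept their direction and their side of the threshold, 60 fell short of it, and 1, itgae.1 in muscle, turned to 0.21 under scaling by library size alone. The counts of integrin genes enriched under scaling by library size alone were 15 (skin), 14 (muscle) and 2 (whole fish), and 4 in skin in 1 joint fit of all libraries. The counts depleted were 0 in skin and muscle and 5 in the whole fish under library size alone, 0 in skin and 8 in the whole fish in the joint fit, and 6 in the whole fish with DESeq2, alone or with a replicate block. The joint fit, where all libraries share 1 estimate of the spread, ended the calls of itga4, itga6a, itga2.2 and itgbl1 in skin and of itga10 and itgb2 (1.38, adjusted p = 0.0727) in muscle. Without a filter, itgbl1 in the whole fish was lost (-3.82, 0.0614). With the replicate block in edgeR, the whole fish count of depleted genes was 0, itgbl1 (-4.00, adjusted p = 0.111) and itgae.1 (-3.18, 0.13) being lost, no other call of pulldown over input was lost, and 8 genes differed between skin and muscle. The count that differed was 11 with DESeq2, 0 in the joint fit, 12 with a block for each lysate and 4 without both skin replicate 2 libraries. Leaving out 1 library gave 6 to 9 genes enriched and 1 to 2 depleted in skin, 6 to 7 and 2 to 3 in muscle, 2 to 5 and 0 to 5 in the whole fish, and 5 to 9 that differed. Over all genes the joint fit called 2087 enriched and 1388 depleted in skin (3694 and 3121 in the separate fit), 2860 and 6889 in the whole fish (1916 and 2615), and 189 and 425 higher in skin and in muscle (2126 and 2313). The whole fish count of all genes depleted was 4114 with DESeq2, 909 with the replicate block in edgeR and 5269 with both DESeq2 and the block. A block for each lysate gave 3638 genes higher in skin and 3292 in muscle, against 1280 and 1617 without both skin replicate 2 libraries. With DESeq2 these counts over all genes were 2768 and 2407, and with the replicate block in edgeR 2723 and 2704. Leaving out 1 library moved the whole fish counts of all genes to 792 or more enriched and 1548 to 4725 depleted. The whole fish libraries, with a coefficient of variation of 0.849, limit what can be called. The cause of these shifts was not tested.

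Uncalled values also changed sign. Under library size alone these were, in skin, itgb3 (0.54), itgb3b (0.75), itgb1-22689 (0.43) and itgb2 (0.38), in muscle itgb3b (1.08), itgb6 (1.54) and itgb1-71863 (1.64), in the whole fish itgb4 (-0.27), itga6b (-0.80) and itgb2 (-0.33), and in skin minus muscle itgb3 (-0.54), itgb3b (-0.33) and itgb6 (-0.38). itga6b in the whole fish was -0.06 with DESeq2, RLE factors or DESeq2 with a block and -0.25 in the joint fit, itgb2 there -0.18 with the replicate block and -0.37 with DESeq2 and the block, and itgb1-71863 in muscle 0.08 without a filter. Leaving out 1 library moved skin itgb3b between -0.44 and 0.32, itgb7 between 0.00 and 0.38 and itgb1-22689 between -0.69 and 0.14, muscle itgb6 between -1.04 and 0.31 and itgb1-71863 between -0.21 and 0.12, whole fish itga6b between -0.10 and 0.16, itgb1-53232 between -0.16 and 1.79 and itgb2 between -0.86 and 0.73, and the skin minus muscle difference of itgb3 between -0.19 and 2.06 and of itgb1-53232 between -1.01 and 1.69.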
